A study of Homo sapiens with 15 samples.

Results

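The genes described are 9 genes of macrophage lipid uptake and of the TREM2 receptor axis, TREM2, TYROBP, TREM1, CD36, MSR1, LPL, CHI3L1, PPARG and PLIN2, taken by gene symbol from the 57820 gene identifiers in each library, with 1 row for each. RNA-seq was performed on 3 human acute myeloid leukemia (AML) cell lines, MOLM-13 and U937, which are of monocytic type, and HL-60, which is of promyelocytic type. Cells carried the empty lentiviral vector pLKO or a short hairpin RNA against the ubiquitin ligase RNF5 (shRNF5), and comparing them asked what loss of RNF5 did to the transcriptome of each line. There were 3 pLKO and 2 shRNF5 libraries of MOLM-13, 2 and 2 of U937, and 3 and 3 of HL-60. All groups were transduced, with no other drug or allele in the labels, which place the harvest at day 7 where the series design gives day 5. Each line is 1 established culture, the hairpin that was sequenced is not named, and the labels do not say whether replicates came from separate cultures, so errors measure the spread between these libraries only, which may be technical.

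TREM2 is a cell surface receptor of macrophages and microglia that binds lipids and lipoproteins. It has no signaling tail of its own and relies on the adaptor DAP12, the product of TYROBP, whose phosphorylated motif recruits the kinase SYK. TREM1 uses the same adaptor and amplifies inflammatory signals. CD36 and MSR1 are scavenger receptors that take up fatty acids and modified lipoproteins, and LPL is the secreted lipase that releases fatty acids from lipoprotein triglycerides. PPARG is the nuclear receptor that senses fatty acids and activates CD36 and PLIN2 in macrophages, PLIN2 coats the lipid droplet, and CHI3L1 is a secreted chitinase-like glycoprotein of macrophages and neutrophils with no chitinase activity.

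The values are normalized read counts, which the authors scaled within each line and rounded to whole numbers, so a level can be compared between libraries of 1 line but not between lines, and levels of different genes were not compared because the values are not per length. A gene at 0 in every library of a line had been filtered out there by the authors. Fold changes are differences of log2(value + 1) between shRNF5 and pLKO with the standard error (SE) of a limma fit per line. A gene was called when its adjusted p-value was under 0.1 and its absolute log2 fold change over 0.4. The 9 genes were selected on their shared biology with the fold changes of these same contrasts known from earlier results, so their fold changes and calls are descriptions and no p-value is attached to them.

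With shRNF5, RNF5 itself was at 7.22% of its pLKO mean in MOLM-13, and at 8.05% and 12.2% in U937 and HL-60, and no shRNF5 library overlapped its pLKO libraries. The libraries held an estimated 9722000 to 63774000 counted reads, and the deepest was shRNF5 replicate 1 of MOLM-13. All 12 myeloid blast markers, among them SPI1, CD33 and PTPRC, were above 0 in every line. Of 11 markers of mature monocytes and macrophages 4 were above 0 in U937 and 3 in each of the other lines, and C1QB, C1QC, FCGR3A, MRC1 and VSIG4 were listed at 0 throughout. Few of the markers of mature macrophages, in which these 9 genes are best known, were thus measured.

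The regions just upstream of 7 of the 9 genes were found in the RefSeq promoter set (GRCh38.p14). The 250 bases before the annotated start, read in the direction of the gene, are shown for TREM2, TYROBP and CHI3L1, which were higher together in HL-60 with shRNF5, and for the CD36 start whose match lies nearest to the start. Capitals mark the letters GAGGAA or, on the opposite strand, TTCCTC, the core bound by the myeloid factor PU.1.
TREM2, chr6:41163117-41163366, reverse strand: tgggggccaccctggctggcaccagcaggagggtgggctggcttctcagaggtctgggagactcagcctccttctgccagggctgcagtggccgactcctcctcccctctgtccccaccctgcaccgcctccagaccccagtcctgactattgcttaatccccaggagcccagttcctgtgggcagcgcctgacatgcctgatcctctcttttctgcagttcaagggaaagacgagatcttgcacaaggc
TYROBP, chr19:35908296-35908545, reverse strand: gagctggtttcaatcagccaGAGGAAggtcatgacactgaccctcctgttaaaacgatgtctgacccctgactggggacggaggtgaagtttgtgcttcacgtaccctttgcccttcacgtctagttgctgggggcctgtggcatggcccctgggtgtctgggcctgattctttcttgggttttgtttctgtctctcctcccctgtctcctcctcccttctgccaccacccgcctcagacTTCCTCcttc
CHI3L1, chr1:203186705-203186954, reverse strand: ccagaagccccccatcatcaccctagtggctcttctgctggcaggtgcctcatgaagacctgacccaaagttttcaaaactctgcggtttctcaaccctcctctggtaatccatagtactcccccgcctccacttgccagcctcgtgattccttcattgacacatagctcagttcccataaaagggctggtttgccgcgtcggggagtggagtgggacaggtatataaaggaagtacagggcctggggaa
CD36, chr7:80646196-80646445, forward strand: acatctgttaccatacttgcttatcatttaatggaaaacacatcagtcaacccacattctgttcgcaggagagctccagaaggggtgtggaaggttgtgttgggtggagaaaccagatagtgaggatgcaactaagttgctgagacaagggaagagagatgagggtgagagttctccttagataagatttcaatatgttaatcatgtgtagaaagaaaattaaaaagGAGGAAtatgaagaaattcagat

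Both strands of each window were searched for 4 motifs. The PU.1 core was found in TYROBP at positions -230 and -10 and in 3 of the 6 windows of CD36. It was in no window of TREM2, TREM1, CHI3L1, PPARG or PLIN2, and was in 23.6% of the 35116 windows of all genes. Whether the members hold it more often than other genes was not tested. The AP-1 site TGANTCA was found in 1 CD36 window and in 6.57% of all windows. The E-box CACGTG, which MITF and TFE factors bind, was found in PLIN2 at -69 and in 6.34% of all windows. The DR1 element of PPARG with RXR, AGGTCA repeated after 1 spacer base, was in none of the 17 windows of the members and in 0.0171% of all windows. No motif matched in TREM2, TREM1, CHI3L1 or the 6 windows of PPARG, which says only that these letters are not in these windows.

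Which members could be measured differed between the lines. Only TYROBP, CHI3L1 and PLIN2 were above 0 in all 3 lines. MOLM-13 had 5 members above 0, those 3 with TREM2 and CD36. U937 had 6, those 3 with TREM1, CD36 and PPARG. HL-60 had 5, those 3 with TREM2 and LPL. Thus CD36 was listed at 0 in HL-60 and LPL in both monocytic lines, and MSR1, the class A scavenger receptor, was listed at 0 in all 15 libraries.

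**Figure D1:**
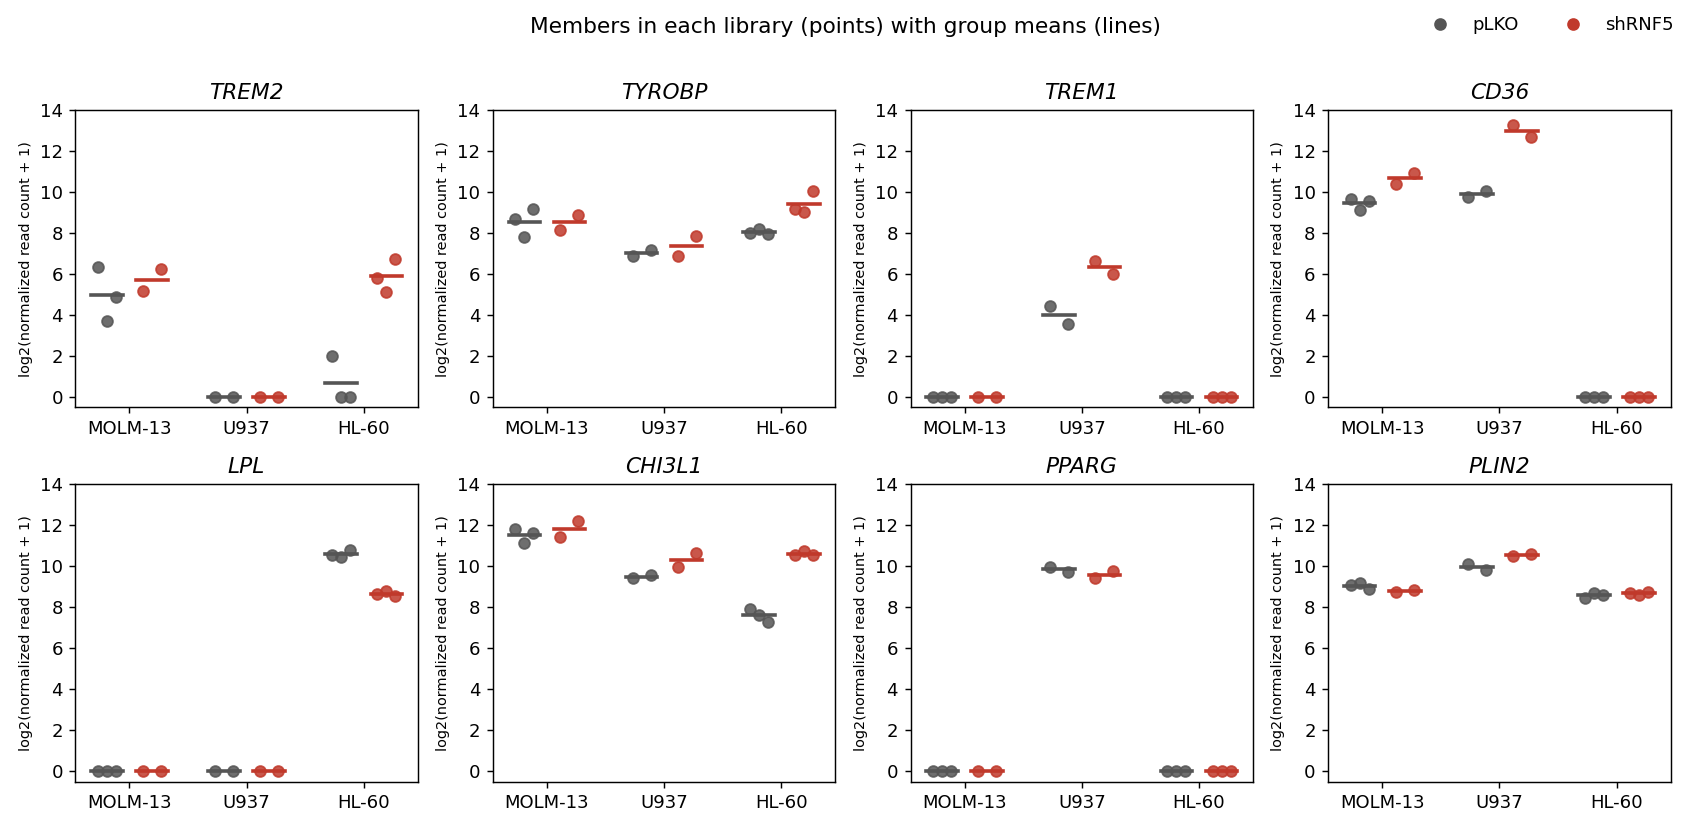
Level of 8 members in each library, as log2(normalized read count + 1), with pLKO in grey and shRNF5 in red for each line, points for libraries and lines for group means. MSR1, at 0 in every library, is not drawn; values were scaled within each line, so heights compare only within a line, and the groups do not overlap for TREM2, TYROBP, CHI3L1 and LPL in HL-60, for TREM1, CD36, CHI3L1 and PLIN2 in U937 or for CD36 and PLIN2 in MOLM-13.

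TREM2 (ENSG00000095970.12) lies at chr6:41126244-41130924 on the reverse strand of GRCh37, the build of the files. In HL-60 its normalized read count was 3, 0 and 0 with pLKO and 55, 34 and 104 with shRNF5. Every shRNF5 library was above every pLKO library, and the lowest shRNF5 library had about 28 reads. By the estimated size of 1 read, the groups held about 4 and 207 reads in all, 132 of the latter in replicate 3. The fitted log2 fold change was 5.22 ± 0.63 (SE, n = 3 and 3). This size depended on the constant added before the logarithm, since the value was 5.93 with 0.5 added and 2.66 with 10 added.

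In MOLM-13, TREM2 was 80, 12 and 28 with pLKO and 35 and 75 with shRNF5. The pLKO libraries spanned the shRNF5 libraries, so the groups overlapped, and the log2 fold change of 0.74 ± 0.73 (SE, n = 3 and 2) was about as large as its error. The receptor was thus already transcribed in MOLM-13 with the empty vector, while in HL-60 with the empty vector at most 4 reads of it were seen in a library. In U937 TREM2 was listed at 0 in all 4 libraries.

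TYROBP (ENSG00000011600.7), which encodes the adaptor DAP12, lies at chr19:36395303-36399197 on the reverse strand. In HL-60 it was 255, 289 and 244 with pLKO and 577, 524 and 1047 with shRNF5, a mean 2.73 times as high. The groups did not overlap and the log2 fold change was 1.38 ± 0.23 (SE, n = 3 and 3). The shRNF5 library with the most TYROBP, replicate 3, was also the one with the most TREM2, and replicate 2 was the lowest for both genes.

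TYROBP showed no such separation in the monocytic lines. In MOLM-13 it was 407, 220 and 569 with pLKO and 285 and 468 with shRNF5, a log2 fold change of -0.02 ± 0.39 (SE). In U937 it was 115 and 145 with pLKO and 116 and 234 with shRNF5, a log2 fold change of 0.35 ± 0.43 (SE). In both lines the groups overlapped.

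TREM1 (ENSG00000124731.8) lies on the same strand as TREM2 at chr6:41235664-41254420, 104.7 kb from it. It was above 0 only in U937, at 21 and 11 with pLKO and 99 and 63 with shRNF5. The shRNF5 libraries were both higher, with a mean 5.06 times as high and a log2 fold change of 2.30 ± 0.59 (SE, n = 2 and 2). Its pLKO libraries held only about 18 and 14 reads of it.

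CD36 (ENSG00000135218.13), at chr7:79998891-80308593 on the forward strand, was higher with shRNF5 in both lines where it was measured. In U937 it was 854 and 1063 with pLKO and 9966 and 6610 with shRNF5, a mean 8.65 times as high. In MOLM-13 it was 811, 563 and 763 with pLKO and 1344 and 1950 with shRNF5, a mean 2.31 times as high. The groups were apart in both lines, and the log2 fold changes were 3.09 ± 0.27 (SE) in U937 and 1.2 ± 0.23 (SE) in MOLM-13.

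CHI3L1 (ENSG00000133048.8), at chr1:203148059-203155832 on the reverse strand, was measured in every line and was higher on average with shRNF5 in each. In HL-60 it was 241, 199 and 155 with pLKO and 1502, 1729 and 1486 with shRNF5, a mean 7.93 times as high with narrow groups far apart. The log2 fold change there was 3.0 ± 0.17 (SE, n = 3 and 3). In U937 it was 681 and 751 with pLKO and 1006 and 1618 with shRNF5, a log2 fold change of 0.83 ± 0.29 (SE), again without overlap. In MOLM-13 it was 3651, 2220 and 3153 with pLKO and 2769 and 4694 with shRNF5, where the groups overlapped and the log2 fold change was 0.29 ± 0.27 (SE).

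LPL (ENSG00000175445.10) was the 1 called member that was lower with shRNF5. It was measured in HL-60 alone, at 1471, 1391 and 1754 with pLKO and 403, 448 and 368 with shRNF5. The shRNF5 mean was 26.4% of the pLKO mean, the groups were far apart, and LPL fell by 1.92 ± 0.14 on the log2 scale (SE, n = 3 and 3). LPL lies at 8:19759228-19824770 on the forward strand and MSR1 at 8:15965387-16424999 on the reverse strand of GRCh37.

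PPARG (ENSG00000132170.15), at chr3:12328867-12475855 on the forward strand, was measured only in U937, at 1006 and 848 with pLKO and 678 and 866 with shRNF5. The groups overlapped and the log2 fold change was -0.27 ± 0.27 (SE, n = 2 and 2).

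PLIN2 (ENSG00000147872.5), at chr9:19108373-19149288 on the reverse strand, was not called in any line. In HL-60 it was 349, 414 and 380 with pLKO and 414, 383 and 430 with shRNF5, a log2 fold change of 0.10 ± 0.14 (SE). In U937 it was 1114 and 888 with pLKO and 1470 and 1540 with shRNF5, a mean 1.5 times as high. The log2 fold change was 0.60 ± 0.25 (SE), without overlap. PLIN2 passed the fold change threshold there but not the adjusted p-value threshold. In MOLM-13 it was 540, 572 and 474 with pLKO and 434 and 454 with shRNF5, the groups just apart and lower with shRNF5, with a log2 fold change of -0.25 ± 0.17 (SE).

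**Figure D2:**
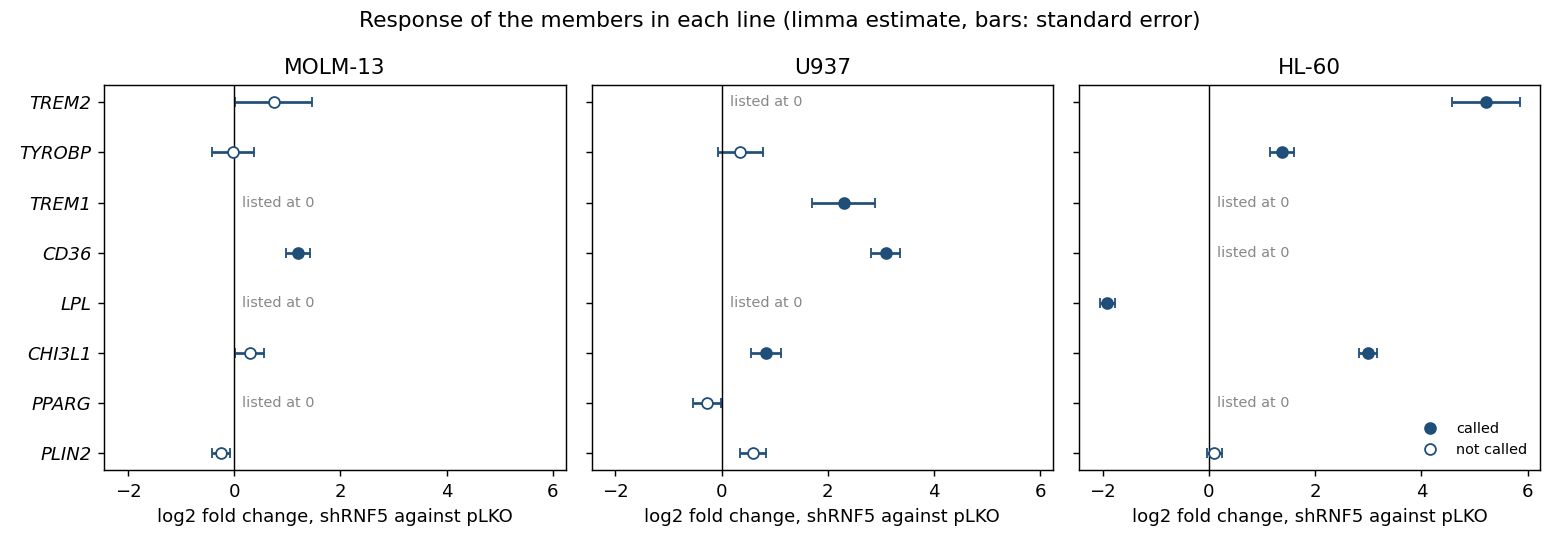
Log2 fold change of each member, shRNF5 against pLKO, in MOLM-13, U937 and HL-60, with bars for the standard error of the limma fit and filled points for called genes. TREM2 in HL-60 (5.22) and CD36 in U937 (3.09) lie farthest to the right and LPL in HL-60 (-1.92) farthest to the left; members listed at 0 in a line are marked.

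In counts, 1 of the 5 measured members was called in MOLM-13 (CD36, higher), where 2.04% of all 13026 tested genes were called. In U937, 3 of 6 were called (TREM1, CD36 and CHI3L1, all higher) against 15.7% of 13165 genes. In HL-60, 4 of 5 were called (TREM2, TYROBP and CHI3L1 higher, LPL lower) against 25.9% of 12570 genes. Of these, TREM2 was tested only through its shRNF5 libraries. Members whose groups did not overlap numbered 2, 4 and 4, against 38.7%, 59.2% and 38.5% of all genes. Since the members were picked with these contrasts known, nothing is read from the counts.

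The calls of TYROBP, CHI3L1 and LPL in HL-60 held in each fit that left out 1 library. TREM2 kept its call there too, but it was tested only through its shRNF5 libraries, so nothing is read from that. The calls in the other lines did not hold in each such fit. In MOLM-13 the CD36 call was lost without pLKO replicate 2, pLKO replicate 3 or either shRNF5 replicate, although its log2 fold change stayed between 0.93 and 1.47 in those 4 fits. In U937, leaving out pLKO replicate 2 or shRNF5 replicate 1 left 0 members called and 0 of all genes called by limma, although 2420 and 1084 genes, 3 and 2 members among them, had an unadjusted p under 0.05. Leaving out shRNF5 replicate 3 left 6 genes, of which CD36 was 1. CHI3L1 was called in U937 only with all 4 libraries, and its log2 fold change ranged from 0.49 to 1.18 with 1 of them left out.

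The responses of the lines were set against each other in 1 fit over the 15 libraries, for members measured in both lines of a pair. The members were chosen with these contrasts known, so passing the threshold is a description and not independent evidence. Which members passed also changed when 1 library was left out, as given below. The log2 fold change of CHI3L1 was larger in HL-60 than in the monocytic lines. The difference was -2.71 ± 0.35 (SE) for MOLM-13 minus HL-60 and -2.17 ± 0.37 (SE) for U937 minus HL-60, both past the threshold. That of CD36 was larger in U937, with a difference of -1.89 ± 0.39 (SE) for MOLM-13 minus U937, also past the threshold. PLIN2 differed between the same lines by -0.84 ± 0.24 (SE), past the threshold. For TREM2 the value was -4.47 ± 0.96 (SE) for MOLM-13 minus HL-60. It is given with no test, because TREM2 was tested in HL-60 only through its shRNF5 libraries and was chosen with that contrast known, and it was -5.18 with 0.5 and -2.11 with 10 added before the logarithm. TYROBP did not pass in any pair, with a difference of -1.40 ± 0.53 (SE) for MOLM-13 minus HL-60 as the widest. These differences passed for 2 of 4 members between MOLM-13 and U937 (16.6% of all genes measured in both), 2 of 4 between MOLM-13 and HL-60, TREM2 being 1 of these (8.72%), and 1 of 3 between U937 and HL-60 (37.4%).

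To place the members among their partners, 123 other genes in 10 lists of receptors, kinases, lipid handling proteins and lipid-associated macrophage markers were counted, each gene once. MOLM-13 had 84 of them above 0, and 1 was called, higher (1.03% of all its genes were called higher and 1.01% lower). There 12 had an unadjusted p under 0.05. No share of all genes stands beside list counts at an unadjusted p under 0.05 here or below, so nothing is read from them. U937 had 89, of which 8 were called higher and 6 lower (6.92% and 8.74% of all its genes). HL-60 had 78, of which 20 were called higher and 8 lower (13.6% and 12.3% of all its genes). The median log2 fold change of the listed genes was 0.104 in MOLM-13 (all tested genes 0.007), 0.056 in U937 (0.004) and 0.036 in HL-60 (0.002). The call in MOLM-13 was lost without pLKO replicate 2 or either shRNF5 replicate, and U937 had 0 of these calls without pLKO replicate 2, shRNF5 replicate 1 or shRNF5 replicate 3.

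**Figure D3:**
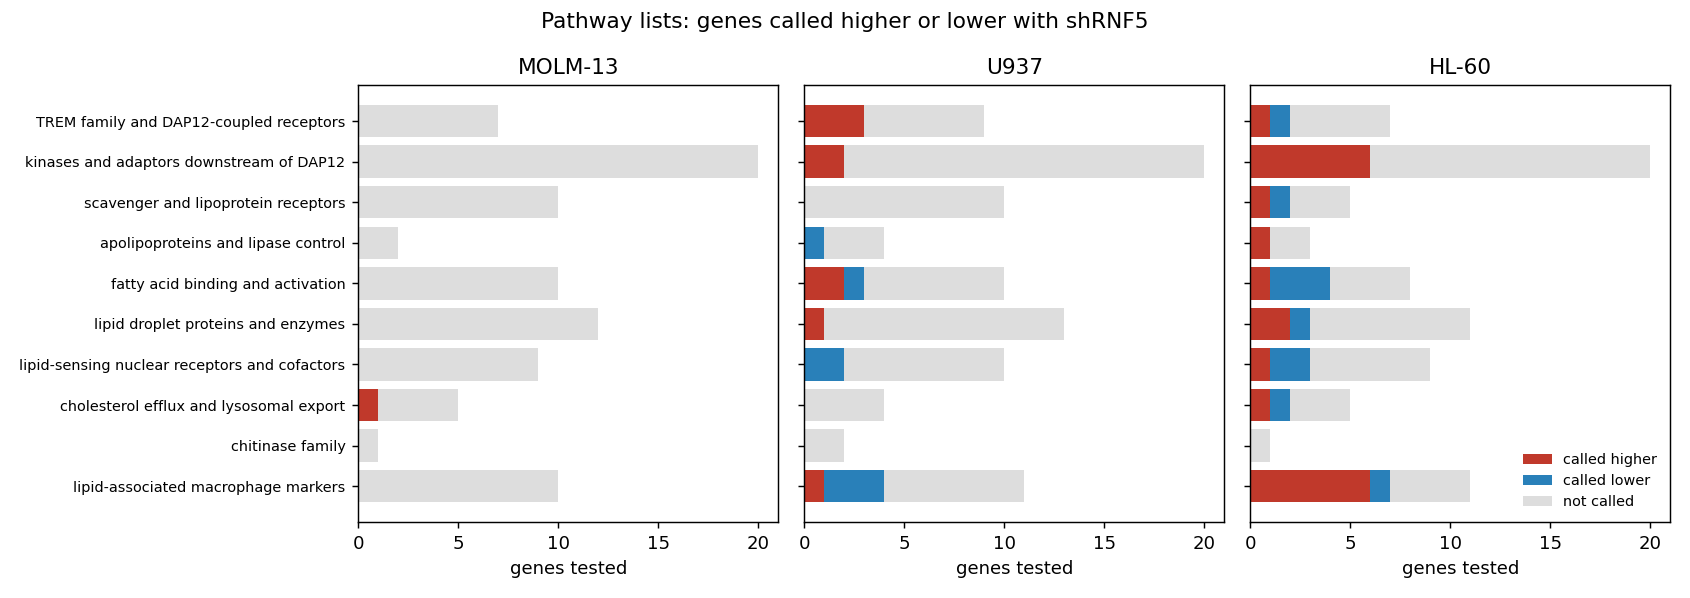
Number of tested genes in each of the 10 lists, by line, with genes called higher with shRNF5 in red, called lower in blue and not called in grey. The most genes called higher in HL-60 are in the kinases and adaptors downstream of DAP12 (6 of 20) and the lipid-associated macrophage markers (6 of 11). Over all HL-60 genes 13.6% were called higher. MOLM-13 has 1 called gene in all.

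Among the other TREM family and DAP12-coupled receptors, 3 of 9 were called in U937, all higher, where 6.92% of all genes were called higher. TREML2, a relative of TREM2 without a DAP12 partner of its own, was 79 and 29 with pLKO and 418 and 164 with shRNF5 (log2 fold change 2.42 ± 0.57, SE, adjusted p = 0.0375). SIRPB1, which signals through DAP12, was 107 and 100 with pLKO and 383 and 305 with shRNF5 (1.71 ± 0.34, SE, adjusted p = 0.025). CLEC5A, a lectin that also uses DAP12, was 1422 and 2184 with pLKO and 3808 and 3788 with shRNF5 (1.11 ± 0.27, SE, adjusted p = 0.0392). In HL-60, 1 of 7 was called higher and 1 lower, while 13.6% and 12.3% of all its genes were. HCST, the adaptor DAP10, was 121, 137 and 109 with pLKO and 218, 196 and 298 with shRNF5 (0.93 ± 0.20, SE, adjusted p = 0.0112), and CLEC5A was the gene called lower, at 433, 172 and 116 with pLKO and 145, 67 and 65 with shRNF5 with overlapping groups. TREML1, TREML4 and NCR2 were listed at 0 in every line.

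Of the 20 kinases and adaptors downstream of DAP12, all of which were measured in every line, 6 were called in HL-60 and each was higher. Over all HL-60 genes 25.9% were called, and 13.6% were called higher. SRC, a tyrosine kinase, was 20, 19 and 11 with pLKO and 58, 42 and 92 with shRNF5 (1.85 ± 0.36, SE). NFAM1, counted in this list though it is an ITAM receptor and not a kinase or adaptor, was also among them. It was 209, 276 and 284 with pLKO and 678, 400 and 764 with shRNF5 (1.22 ± 0.23, SE). FGR, SYK and CARD9 were called higher there too. In U937, 2 were called higher, FGR (742 and 575 with pLKO, 1164 and 1343 with shRNF5) and SYK (2734 and 2724 with pLKO, 5533 and 4610 with shRNF5). MOLM-13 had no limma call, 1 gene at an unadjusted p under 0.05, and a median of 0.122 over the log2 fold changes of the 20 genes.

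The other scavenger and lipoprotein receptors had no limma call among 10 in MOLM-13, where 3 had an unadjusted p under 0.05, and none among 10 in U937, where 0 did. In HL-60, where 5 were measured, MARCO, a class A scavenger receptor like MSR1, was 4, 7 and 4 with pLKO. With shRNF5 it was 21, 21 and 20 (1.89 ± 0.40, SE). The MARCO values with pLKO were only a few reads each, so the size of its rise is uncertain and no p-value is attached. SCARB1, the receptor for high-density lipoprotein, was lower, at 1994, 1942 and 1812 with pLKO and 1109, 1173 and 1138 with shRNF5 (-0.75 ± 0.11, SE, adjusted p = 0.00253). Among genes of cholesterol efflux and lysosomal export, which include SCARB1, ABCA1, the cholesterol exporter, was the 1 call in MOLM-13, at 199, 215 and 420 with pLKO and 925 and 848 with shRNF5 (1.75 ± 0.31, SE, adjusted p = 0.069). NPC2, which moves cholesterol out of lysosomes, was called higher in HL-60 (0.80 ± 0.26, SE).

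Among genes of lipid-carrying proteins that TREM2 is known to bind, 1 was called lower in U937 and a different 1 higher in HL-60. Over all genes 8.74% were called lower in U937 and 13.6% higher in HL-60. APOE, measured in U937 alone, was 260 and 97 with pLKO and 13 and 23 with shRNF5 and fell by 3.13 ± 0.59 on the log2 scale (SE, adjusted p = 0.0212). CLU was 5, 2 and 7 with pLKO and 74, 61 and 31 with shRNF5 in HL-60 and rose by 3.34 ± 0.47 (SE). Its pLKO values were only a few reads each, since 1 read counted 0.783 to 1.21 there. The size of the rise is thus uncertain, and no p-value is attached to it. In U937, CLU was 1381 and 1081 with pLKO and 828 and 1025 with shRNF5, lower like APOE there (-0.41 ± 0.26, SE), and was not called.

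Genes of fatty acid binding and activation were mixed. In U937 FABP5, a fatty acid carrier, was 365 and 709 with pLKO and 1354 and 997 with shRNF5 (1.19 ± 0.34, SE), the transporter gene SLC27A4 was higher (0.96 ± 0.33, SE), and SLC27A1 was lower (-1.07 ± 0.35, SE). In HL-60 SLC27A3 was higher (1.12 ± 0.22, SE), while ACSL5, which activates fatty acids, was lower (-0.53 ± 0.13, SE) and SLC27A4 was lower as well (-0.52 ± 0.13, SE). Besides PLIN2, 1 of 13 lipid droplet genes was called in U937, CIDEB (0.78 ± 0.26, SE), where 15.7% of all genes were called. In HL-60 3 of 11 were, against 25.9% of all genes, so nothing is read from either count. There the lipase gene PNPLA2 (0.61 ± 0.16, SE) and PLIN3 (0.48 ± 0.17, SE) were higher, and ABHD5, which activates that lipase, was lower (-0.53 ± 0.18, SE). Among 12 lipid droplet genes none was called by limma in MOLM-13 and 0 had an unadjusted p under 0.05.

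Among lipid-sensing nuclear receptors and their cofactors, PPARGC1A, the PPARG coactivator, was measured in U937 alone, at 1660 and 736 with pLKO and 270 and 318 with shRNF5 (-1.91 ± 0.37, SE, adjusted p = 0.0223). RXRB, a PPARG partner, was lower there too (-0.78 ± 0.25, SE, adjusted p = 0.0805). In HL-60 NR1H3, the liver X receptor of macrophages, was 29, 41 and 19 with pLKO and 42, 61 and 65 with shRNF5 (0.93 ± 0.33, SE, adjusted p = 0.0693). PPARGC1B, another coactivator, was lower (-0.78 ± 0.19, SE). The chitinase family beside CHI3L1 had no limma call in the 3 lines, with 1, 2 and 1 genes measured of 4, and 1 gene, in HL-60, at an unadjusted p under 0.05.

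Of the 17 lipid-associated macrophage markers, the genes of the macrophages in fat and plaques in which TREM2 is best known, 11 were measured in HL-60. There 6 were called higher and 1 lower (FABP5, -0.40 ± 0.15, SE), while 13.6% and 12.3% of all genes were. The median log2 fold change of the 11 was 0.527. CTSD, a lysosomal protease, was 1215, 1106 and 835 with pLKO and 2809, 2234 and 3912 with shRNF5 (1.48 ± 0.20, SE, adjusted p = 0.00178). CD9, a tetraspanin, was 9, 5 and 5 with pLKO and 18, 17 and 21 with shRNF5 (1.46 ± 0.40, SE). Its pLKO values were low, so the size of its rise is uncertain. SPP1, which encodes osteopontin, was 20, 12 and 19 with pLKO and 39, 45 and 26 with shRNF5 (1.06 ± 0.34, SE). In U937 1 of 11 was called higher, FABP5, and 3 lower, among them APOE and the integrin gene ITGAX (-1.44 ± 0.48, SE). Over all U937 genes 6.92% were called higher and 8.74% lower. MOLM-13 had no limma call among 10, 2 of which had an unadjusted p under 0.05. CTSD in U937 was 54045 and 26280 with pLKO and 23797 and 17992 with shRNF5, where it was not called.

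**Figure D4:**
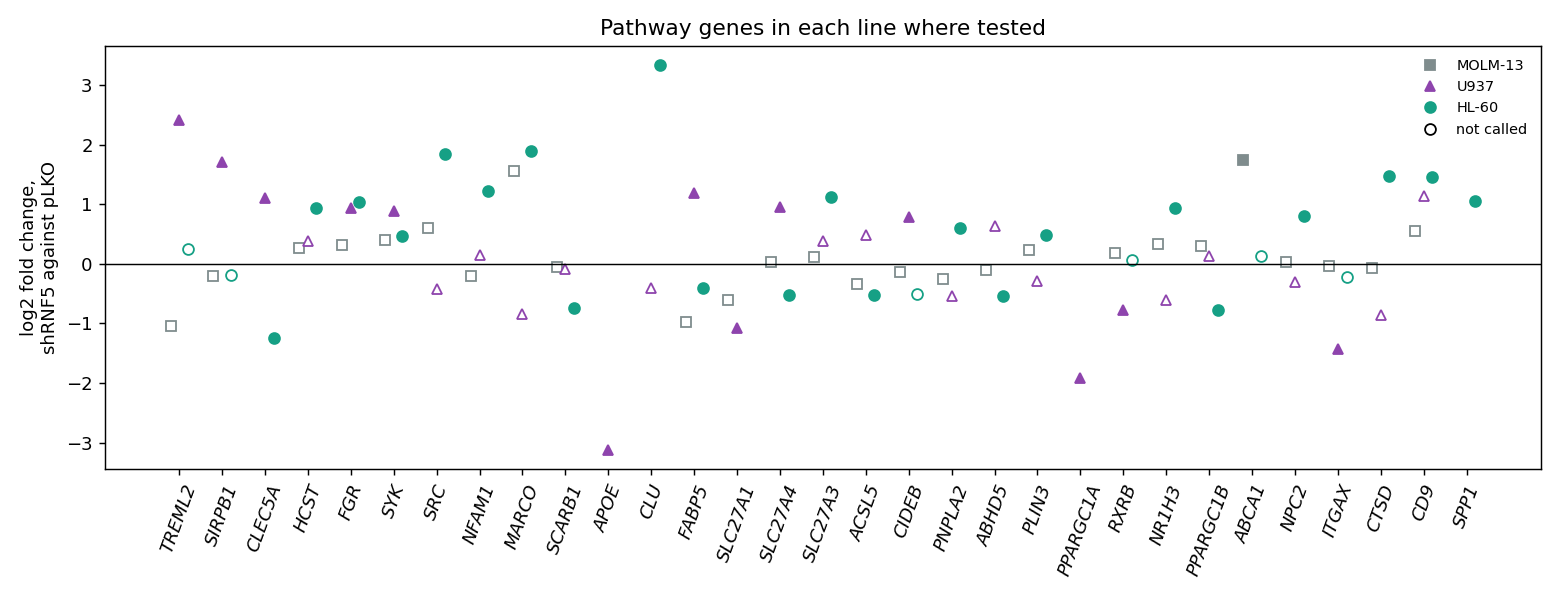
Log2 fold change, shRNF5 against pLKO, of pathway genes named in the text, in each line where they were tested, with squares for MOLM-13, triangles for U937, circles for HL-60 and filled symbols for called genes. CLU in HL-60 (3.34) is the highest point and APOE in U937 (-3.13) the lowest; SRC and CTSD are filled for HL-60 and TREML2 and SIRPB1 for U937, and differences between the lines were not tested for these genes.

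Other markers moved with the construct too. In HL-60 the summed level of the 12 myeloid blast markers was 129595 to 159670 with pLKO and 183345 to 275883 with shRNF5, with 8 called higher, among them ELANE and CTSG, and 1 lower. MPO made up most of that sum, at 105563 to 130372 with pLKO and 141317 to 207430 with shRNF5. Over all HL-60 genes 13.6% were called higher and 12.3% lower. In U937 the sum was 70270 to 75508 with pLKO and 34727 to 42623 with shRNF5, with 5 called lower (8.74% of all genes were). In MOLM-13 it was 115039 to 151338 with pLKO and 120090 to 144498 with shRNF5, with no limma call and 1 gene at an unadjusted p under 0.05. The mature monocyte and macrophage markers summed to 242 to 324 in HL-60 with pLKO and 336 to 554 with shRNF5, to 277 to 652 and 577 to 769 in U937, and to 516 to 1212 and 794 to 1223 in MOLM-13, with 1 call in all, in U937. The part of these shifts in the members' values was not tested, and in bulk RNA more cells of a kind and more RNA per cell cannot be told apart.

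Adipocytes also express LPL, PPARG and PLIN2, and their markers were listed at 0 except FABP4 in U937 (21 and 7 with pLKO, 40 and 29 with shRNF5). Of 7 osteoclast markers 4 were above 0 in U937 and 2 in each of the other lines, with ACP5 and CALCR at 0 throughout, and their sums were at most 235, 324 and 264. Of 8 lymphoid and erythroid markers 0, 3 and 1 were above 0. None of these markers was called by limma, and 1 osteoclast marker in each line had an unadjusted p under 0.05.

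The genes whose pattern was most like each called member were ranked by Pearson r over the 15 libraries after each line's mean log2 value had been subtracted. The libraries share the knockdown contrast and the genes are not independent, so r is a description. MYO7A (0.941), TPMT (0.939) and CREG1 (0.937) were most like TREM2, and ITM2B (0.904), HCST (0.89) and IL10RA (0.884) most like TYROBP. The glucose transporter gene SLC2A1 (0.955), TBC1D30 (0.95) and UBE2D4 (0.938) were most like CD36. PCTP (0.946), LGALS1 (0.938) and ANKRD20A5P (0.93) were most like CHI3L1. For LPL and TREM1, which were above 0 in 1 line only, ITGA2 (0.99), RAI14 (0.989) and CNNM1 (0.988), and ARHGEF28 (0.996), KLRF2 (0.987) and CYP1A1 (0.982) came first, so those values rest on the 6 libraries of HL-60 and the 4 of U937. Likewise TREM2, at 0 in U937, varied over 11 of the libraries and CD36, at 0 in HL-60, over 9.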

How the data were processed

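RNA-seq libraries were grouped by line, construct and replicate number in the sample labels. The authors trimmed the reads, aligned them with STAR (hg19), obtained counts per gene from featureCounts and normalized each line through SARTools and edgeR. A 3′ end library kit is named in the labels and a directional poly(A) kit in the methods. The deposited values are a score, because the authors scaled the counts and rounded them, and whole reads could not be recovered in every library, so no count test was run. Depth was estimated from the spacing of low values.

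Each line was fitted with limma 3.58.1 in R 4.3.3 on log2(value + 1), with empirical Bayes, a mean-variance trend and Benjamini-Hochberg adjustment over all genes above 0. Repeated rows (2746 of 60566 per file) were dropped. Line differences used 1 fit and an adjusted p-value under 0.1. The steps were tested on simulated data. Replicate numbers were not taken to pair the libraries. Members, lists and tests were chosen with earlier results of these data known.

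Named were the members, RNF5, up to 3 called genes per list and line with the largest change and no overlap between groups, the 3 genes most like each called member, and up to 3 markers per list. Outside this rule and chosen after their values were seen are CLEC5A, FABP5, FGR, SYK, CARD9, ELANE, CTSG and MPO in HL-60. So are CLU and CTSD in U937, and the genes and markers named as listed at 0. Coordinates are from GENCODE on GRCh37, and no exon of another gene overlapped a member. No protein sequences were used here, and some results for single genes are not reported here.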

Additional observations from a re-analysis of the deposited data

Results flagged for a closer look

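The 5 results below are differences in response between lines that passed an adjusted p-value under 0.1 in 1 limma fit over all libraries. They come from the contrasts with which the members were chosen and are not independent evidence. CD36 differed by -1.89 (MOLM-13 minus U937, log2 scale), being higher with shRNF5 in all shRNF5 libraries of both lines. PLIN2 differed by -0.84 (MOLM-13 minus U937), with both shRNF5 libraries below pLKO in MOLM-13 and above pLKO in U937. TREM2 differed by -4.47 (MOLM-13 minus HL-60). Its pLKO values in HL-60 were 3, 0 and 0, so it entered that fit only through the shRNF5 libraries, nothing rests on its passing, and the value was -5.18 with 0.5 and -2.11 with 10 added before the logarithm. CHI3L1 differed by -2.71 (MOLM-13 minus HL-60) and by -2.17 (U937 minus HL-60). No group had enough libraries for a search for single outlying libraries.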

How the results depend on the processing

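Without a mean-variance trend the members called were 0 in MOLM-13 (1 as reported), and the pathway genes called 0 in MOLM-13 (1 as reported) and 2 in U937 (14 as reported). At an adjusted p-value under 0.05 these were 0, 0 and 5. In 1 fit over all 15 libraries the pathway genes called were 2 in MOLM-13 and 28 in U937. With a mean value of at least 50 required, 1 member differed between MOLM-13 and HL-60 in place of 2, because TREM2 was no longer tested. With 1 library left out, members called ranged from 0 to 1 in MOLM-13 and 0 to 2 in U937, and pathway genes from 0 to 5 and 0 to 19. The loss in U937 followed pLKO replicate 2, shRNF5 replicate 1 and shRNF5 replicate 3. Members whose response differed ranged from 0 to 2 for MOLM-13 and U937 (0 without U937 shRNF5 replicate 1, 1 without either MOLM-13 shRNF5 replicate), from 1 to 3 for MOLM-13 and HL-60 (1 without MOLM-13 shRNF5 replicate 1, where TREM2 was lost, and 3 without MOLM-13 pLKO replicate 2, where TYROBP was added), and from 1 to 2 for U937 and HL-60 (2 without U937 pLKO replicate 2 or shRNF5 replicate 3). The cause of these changes was not tested, apart from the smaller number of libraries.

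A replicate block gave 7 pathway genes called in MOLM-13 and kept the counts of members called in MOLM-13 and HL-60. The deviations of same-numbered libraries correlated at -0.173 and -0.53 in MOLM-13 and at 0.505, 0.156 and -0.109 in HL-60. Because not every pair was above 0.1, the numbers were not taken to pair the libraries. In U937 the 1 shared number gave 0.256, as did pLKO replicate 2 with shRNF5 replicate 1, which share no number. In a group of 2 libraries the deviations mirror each other, so these values cannot show pairing in U937. The same mirroring holds for the shRNF5 libraries of MOLM-13. No paired analysis was possible because the groups share 1 number in U937. The members' fold changes were also counted once per line and alternative setting, so the same fold change can recur. In that count 17 lost their call, 1 (PLIN2 in U937) gained one, and 195 stayed on the same side of the thresholds. No called fold change of a member in HL-60 lost its call under any setting in which it was tested. For TREM2 nothing is read from this, since it was tested there only through its shRNF5 libraries. Depth limits TREM2 and TREM1, whose pLKO libraries held about 0 to 4 reads (TREM2 in HL-60), 7 to 42 reads (TREM2 in MOLM-13) and 14 to 18 reads (TREM1 in U937). It also limits CLU, MARCO and CD9 in HL-60, whose pLKO values were at most 9.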
